A study of Mus musculus with 2 samples.

Results

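The 9 genes *Ptgds*, *Mt1*, *Mt2*, *Npy*, *Syt4*, *Rapgef4*, *Trpm1*, *Cpne4* and *Ptprd* have no enzyme or structural protein of the melanosome among them, yet their transcripts were higher in melanoblasts, the embryonic precursors of pigment cells, than in the other sorted cells of the WT embryo as a pool. They are 9 of the 28000 genes counted, and they were chosen from these same data, because each led a melanoblast cluster or had one of the lowest ratios of HIRA KO to HIRA WT in melanoblasts. Their level in melanoblasts relative to other cells, and their KO over WT ratio in melanoblasts, are therefore given as a description only. Of the 3 melanoblast clusters 2 are non-cycling, so the choice also favoured genes that are lower in cycling cells. KO over WT ratios in other cell types and variation from cell to cell had no part in it.

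HIRA is a histone chaperone that deposits the histone variant H3.3, and the study asked what its loss does to developing melanoblasts. Trunk skin of E15.5 mouse embryos was dissociated, live tdTomato+ cells were sorted by flow cytometry, and scRNAseq libraries were made with the 10x Genomics Chromium 3′ kit, 1 for each embryo. The study did so for 3 embryos of each genotype, and the counts read here are those of 1 HIRA WT and 1 HIRA KO embryo, inferred to be its WT1 and KO1. By the study's methods the HIRA KO embryos carried TyrCre, homozygous floxed *Hira* alleles (*Hira* fl/fl) and the Rosa26-LSL-tdTomato reporter, and the HIRA WT embryos carried the same TyrCre and reporter with *Hira* wt/wt. The labels give both libraries a mixed background, close to C57BL/6J, while the methods call the *Hira* fl/fl and TyrCre mice C57Bl/6. Cre was driven by the *Tyr* promoter, so both recombination of *Hira* and the red label depend on where that promoter has been active, which includes glial and other cells of neural crest origin as well as melanoblasts.

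A UMI (unique molecular identifier) stands for 1 captured transcript. The WT library held 7073939 UMIs in 1546 cell barcodes, with a median of 3961 per barcode, and the KO library 5049514 UMIs in 846 barcodes, with a median of 5152.5. The libraries shared 0 barcodes. A filter of at least 100 genes and at most 10% mitochondrial UMIs per barcode left 1540 WT and 828 KO cells. These were clustered together with the 9 genes held out, and marker genes other than these 9 gave each cluster its name. The melanoblast-like class held 535 WT and 138 KO cells, at a median depth of 4327 and 5638 UMIs. It was made of 3 clusters. A non-cycling cluster led by *Pmel* held 170 WT and 84 KO cells, a cycling cluster with 8 cell cycle genes among its 10 leading genes held 153 and 40, and a non-cycling cluster led by *Mlana*, *Olfm1*, *Dct* and *Pax3* held 212 and 14.

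Levels are UMIs of a gene summed over the cells of a class, divided by all UMIs of those cells and scaled to 1000000 (CPM), and they are compared within a gene, not between genes. There is 1 library per genotype and no replicate, so no test was made. Values in brackets are 95% intervals that cover counting error only, exact Poisson for CPM, Clopper-Pearson for shares of cells, and exact conditional binomial for log2 ratios.

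*Hira* (ENSMUSG00000022702) was found with 35 UMIs in the WT melanoblast-like class, at 13.8 CPM [9.63, 19.2], and with 3 UMIs in the KO one, at 3.63 CPM [0.748, 10.6]. In all other cells it had 47 UMIs in each library. Of the melanoblast markers *Dct*, *Pmel* and *Tyr* were near the same level in both over the class, with *Dct*, the dopachrome tautomerase of melanin synthesis, at 3052 CPM in WT against 2985 CPM in KO, *Pmel*, the melanosome fibril protein, at 1436 and 1425 CPM, and *Tyr*, the tyrosinase, at 251 and 267 CPM. By cluster the log2 KO over WT ratio of *Pmel* went both ways. It was -0.77 [-0.89, -0.64] in the *Pmel*-led, 0.30 [0.14, 0.46] in the cycling and 0.66 [0.28, 1.03] in the *Olfm1*-led cluster. The transporters *Slc45a2*, at 146 and 99.2 CPM with a log2 ratio of -0.56 [-0.92, -0.21], and *Slc24a5*, at 439 and 376 CPM with -0.22 [-0.41, -0.04], were lower in KO. *Tyrp1*, another enzyme of melanin synthesis, had 60 UMIs in WT and 0 in KO, which allows up to 3.63 CPM. *Xist*, the transcript of the inactive X chromosome, counted 6119 UMIs in WT against 2 in KO for this class. *Eif2s3y*, from the Y chromosome, counted 0, which allows up to 1.18 CPM, against 47. The WT library was thus female and the KO library male, and genotype, sex and embryo cannot be told apart in any KO over WT ratio given here.

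As background, melanoblasts leave the neural crest, migrate through the dermis into the epidermis and hair follicles, and divide on the way before they make pigment. Besides the pigment enzymes they express genes shared with neurons and glia, which arise from the same crest cells, such as genes of vesicle release, peptide signalling and ion channels. Transcription factor MITF drives much of the pigment programme, and zinc and other metals switch on metallothionein genes through the factor MTF1.

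In WT, all 9 genes were at least 2-fold higher in melanoblast-like cells than in all other cells with 10 CPM added to both levels, against 2.12% of 8577 genes with at least 50 UMIs in that library, a count that the choice of genes fixed. In KO, 8 of the 9 were, against 2.32% of 7663 genes, and the exception was *Ptprd*. By this fold *Ptgds* stood at place 3 in WT, *Mt2* at 5 and *Syt4* at 6, among leaders that included *Dct* at 33.3-fold and *Pmel* at 23.5-fold. *Ptprd* was at place 150 in WT, and its level was no higher than in mesenchymal-like cells, so the name melanoblast-enriched holds for it against the pool of other cells and not against that class.

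*Ptgds* (ENSMUSG00000015090; chr2:25466709-25470046, minus strand, GRCm38) encodes the lipocalin-type prostaglandin D synthase, which makes prostaglandin D2 and binds retinoids. In melanoblast-like cells it was at 2635 CPM [2572, 2699] in WT, from 6672 UMIs, and at 2979 CPM [2863, 3099] in KO, from 2463 UMIs, a log2 KO over WT ratio of 0.18 [0.11, 0.24]. The ratio differed from cluster to cluster. It was -0.22 [-0.32, -0.13] in the *Pmel*-led cluster, 0.30 [0.18, 0.42] in the cycling cluster and 0.69 [0.47, 0.90] in the *Olfm1*-led cluster with its 14 KO cells. Without the *Olfm1*-led cluster the value over the class was 0.07. *Dct* had ratios of the same signs, -0.71 [-0.81, -0.62], 0.48 [0.38, 0.58] and 0.53 [0.32, 0.73] in the same order.

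Outside melanoblasts *Ptgds* was lower in KO than in WT in glial-like, mesenchymal-like and keratinocyte-like cells. Its level was 98.4 CPM [83.8, 115] in WT against 56.6 CPM [44.1, 71.7] in KO glial-like cells, and 187 CPM [162, 215] and 77.0 CPM [63.6, 92.5] in mesenchymal-like cells. The log2 ratios were -0.80 [-1.22, -0.38] and -1.28 [-1.62, -0.94], and within the 3 mesenchymal-like clusters -0.87 [-1.30, -0.45], -0.75 [-1.80, 0.43] and -2.11 [-3.14, -1.12]. The share of cells with a *Ptgds* UMI was not lower in KO in these 2 classes. With cells thinned to the same depth it was 7.07% in WT and 7.69% in KO glial-like cells. In mesenchymal-like cells it was 7.77% and 10.1%. Droplets also take up free RNA from other cells, and *Dct*, which these classes should lack, had ratios of -1.05 and -0.93 there. The part of free RNA in the *Ptgds* values was not tested. Keratinocyte-like cells, with 12 in WT, had 410 CPM of *Ptgds* in WT against 61.8 CPM in KO, a ratio of -2.73 beside -2.18 for *Dct*. The 34 WT UMIs lay in 5 of those 12 cells. Over all WT glial-like cells there were 2.15 *Ptgds* UMIs for each *Dct* UMI, against 0.863 in WT melanoblast-like cells. *Pmel*, which glial-like cells should also lack, was at 0.853 and 0.470 by the same measure.

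*Mt1* (ENSMUSG00000031765) and *Mt2* (ENSMUSG00000031762) encode metallothioneins, small cysteine-rich proteins that bind zinc, copper and cadmium. They lie 5513 bases apart on the plus strand of chromosome 8 (chr8:94179082-94180327 and chr8:94172664-94173568). *Mt1* was at 4105 CPM [4027, 4185] in WT against 4145 CPM [4008, 4286] in KO melanoblast-like cells, from 10394 and 3427 UMIs. *Mt2* was at 1528 CPM [1480, 1577] and 1527 CPM [1443, 1613], from 3869 and 1262 UMIs. The log2 ratios were 0.01 [-0.04, 0.07] and -0.00 [-0.09, 0.09], and other settings put each of them on both sides of 0. By cluster, *Mt1* was at 0.11 [0.03, 0.20] in the *Pmel*-led, -0.00 [-0.10, 0.09] in the cycling and 0.12 [-0.06, 0.29] in the *Olfm1*-led cluster, and *Mt2* at 0.07 [-0.07, 0.20], 0.02 [-0.14, 0.19] and 0.31 [0.04, 0.57].

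*Mt1* was abundant in other cell types as well. Among the 6 largest classes its WT level fell from melanoblast-like cells to keratinocyte-like cells at 1506 CPM [1254, 1794] and macrophage-like cells at 1449 CPM [1368, 1534], 2 classes whose intervals overlap, then to mast cell-like cells at 888 CPM [784, 1002], mesenchymal-like cells at 501 CPM [459, 545] and glial-like cells at 213 CPM [191, 237]. There were 59.3 *Mt1* UMIs for each *Dct* UMI in WT macrophage-like cells and 37.7 in mast cell-like cells, from 20 and 7 *Dct* UMIs, against 1.35 in melanoblast-like cells. The part of free RNA in these *Mt1* values was not tested. A macrophage-like cluster led by *Pf4* and *C1qc* carried most of it, at 1763 CPM in WT against 1529 CPM in KO. The 3 WT pericyte-like cells, too few to read, had 4079 CPM.

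Between the libraries both metallothioneins were higher in KO in glial-like cells and lower in macrophage-like and keratinocyte-like cells. In glial-like cells *Mt1* was at 213 CPM in WT against 293 CPM in KO, a log2 ratio of 0.46 [0.24, 0.68], and *Mt2* at 50.1 and 126 CPM, a ratio of 1.33 [0.93, 1.73]. In macrophage-like cells *Mt1* was at 1449 and 1200 CPM, a ratio of -0.27 [-0.46, -0.09], and *Mt2* at 216 CPM [186, 251] and 59.8 CPM [34.2, 97.1], a ratio of -1.86 [-2.69, -1.12]. The KO macrophage-like cells numbered 35 and gave 16 UMIs of *Mt2*. Of them 18 fell in the *Pf4*-led cluster and 17 in the *Plac8*-led one, against 96 and 50 in WT. The part of this unequal mix in the macrophage-like ratios was not tested. In mesenchymal-like cells *Mt1* was at 501 and 471 CPM, a ratio of -0.09 [-0.25, 0.08], and *Mt2* at 140 and 73.7 CPM, a ratio of -0.93 [-1.29, -0.56]. Their clusters differed. In the cluster with most cells, 170 in WT and 101 in KO, *Mt1* was at 0.27 [0.08, 0.47] and *Mt2* at -1.13 [-1.67, -0.63], and in the one with 24 WT and 119 KO cells they were at 0.17 [-0.43, 0.83] and 1.35 [-0.29, 3.69]. In the remaining cluster, with 21 WT and 33 KO cells, they were at -0.12 [-0.59, 0.38] and -0.83 [-1.87, 0.28]. In keratinocyte-like cells, 12 in WT, the ratios were -0.90 [-1.18, -0.61] and -1.03 [-1.45, -0.59]. The level of *Mt2* was higher in KO in each of the 5 glial-like clusters, and 78 of the 153 KO UMIs lay in a cluster of 88 KO cells led by *Pcdh20* and *Gabra2*, which had 21 UMIs in 160 WT cells.

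The counts of *Mt1* and *Mt2* were correlated from cell to cell, so the start regions of both are shown. They come from RefSeq for GRCm38.p6, and the set at hand held 9 promoters of 300 bases, for 7 of the 9 genes and not for *Syt4* and *Ptprd*. The motifs searched on both strands were TGCACNC and TGCGCNC, the core of the metal response element that MTF1 binds. At least 1 match was found in 25.7% of 32851 promoters and 3 or more in 1.97%. The *Mt1* promoter (chr8:94178839-94179138, plus strand) held 3 and the *Mt2* promoter (chr8:94172368-94172667, plus strand) 4, shown in capitals, and a match describes the letters and not the use of a site.
Mt1: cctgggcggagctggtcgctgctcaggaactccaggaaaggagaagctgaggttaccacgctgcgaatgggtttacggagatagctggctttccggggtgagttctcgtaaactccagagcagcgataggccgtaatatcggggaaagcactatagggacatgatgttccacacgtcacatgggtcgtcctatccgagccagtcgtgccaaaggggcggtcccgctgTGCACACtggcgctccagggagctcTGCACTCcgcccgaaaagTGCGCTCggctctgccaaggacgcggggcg
Mt2: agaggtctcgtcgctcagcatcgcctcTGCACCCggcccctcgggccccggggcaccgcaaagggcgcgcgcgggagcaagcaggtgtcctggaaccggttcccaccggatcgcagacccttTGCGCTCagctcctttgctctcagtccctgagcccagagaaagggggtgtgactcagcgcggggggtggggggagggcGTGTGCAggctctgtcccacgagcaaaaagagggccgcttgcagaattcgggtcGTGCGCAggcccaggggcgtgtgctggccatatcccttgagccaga

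*Npy* (ENSMUSG00000029819; chr6:49822710-49829507, plus strand) encodes neuropeptide Y, a secreted peptide of sympathetic and central neurons. It was at 508 CPM [480, 536] in WT melanoblast-like cells, from 1285 UMIs, and at 333 CPM [294, 374] in KO, from 275 UMIs. The log2 ratio was -0.61 [-0.80, -0.42], a 1.53-fold lower level, with 6.01% of genes lower still. The level was lower in KO in each of the 3 clusters, with ratios of -0.71 [-0.97, -0.46] in the *Pmel*-led, -0.66 [-1.03, -0.31] in the cycling and -0.60 [-1.35, 0.06] in the *Olfm1*-led cluster, the last not detectable at this depth.

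Outside melanoblasts, 163 of the 282 WT UMIs of *Npy* were in glial-like cells, at 99.6 CPM [84.9, 116] in WT against 85.4 CPM [69.8, 103] in KO, a ratio of -0.22 [-0.59, 0.14]. There were 2.17 *Npy* UMIs for each *Dct* UMI in WT glial-like cells, against 0.166 in WT melanoblast-like cells. These UMIs were spread unevenly over the glial-like clusters. A cluster led by *Pcdh20* and *Gabra2* had 189 CPM in WT against 183 CPM in KO, and one led by *Pcdh20* and *Fabp7* had 147 and 148 CPM, while one led by *Pou3f1* and *Cpm* had 3 UMIs in 38 WT cells and 7 in 61 KO cells. Mesenchymal-like cells had 63.9 CPM in WT against 16.7 CPM in KO, a ratio of -1.93 [-2.66, -1.25] beside -0.93 for *Dct*. Within the mesenchymal-like clusters the ratios of *Npy* were -1.41 [-2.33, -0.56], -4.11 [-7.45, -1.62] and -1.24 [-2.95, 0.57], that of -4.11 from 6 WT and 2 KO UMIs. In macrophage-like cells *Npy* was at 22.0 CPM in WT, from 18 UMIs, with 2 UMIs in KO.

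*Syt4* (ENSMUSG00000024261; chromosome 18) encodes synaptotagmin 4, a membrane protein of vesicle traffic and regulated exocytosis. It was at 192 CPM [175, 210] in WT melanoblast-like cells, from 486 UMIs, and at 134 CPM [110, 162] in KO, from 111 UMIs, a log2 ratio of -0.52 [-0.83, -0.22]. The ratio was -0.43 [-0.85, -0.02] in the *Pmel*-led cluster and -0.53 [-1.09, 0.00] in the cycling cluster, and -1.55 [-3.44, -0.16] in the *Olfm1*-led cluster with 4 KO UMIs. Next in order in WT was the mesenchymal-like class, at 24.4 CPM [16.0, 35.8] in WT against 7.37 CPM [3.68, 13.2] in KO. Its clusters differed, with 25 WT and 3 KO UMIs in the one with 170 WT and 101 KO cells, and 0 and 6 UMIs in the one with 24 and 119 cells. Glial-like cells had 3 UMIs in each library, so no ratio could be read there.

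*Rapgef4* (ENSMUSG00000049044; chr2:71981240-72257474, plus strand) encodes EPAC2, an exchange factor that activates RAP1 when it binds cyclic AMP, the second messenger downstream of the melanocortin receptor. It was at 184 CPM [168, 202] in WT against 117 CPM [95.1, 143] in KO melanoblast-like cells, from 466 and 97 UMIs, a log2 ratio of -0.65 [-0.98, -0.33]. In the *Pmel*-led cluster the ratio was -0.48 [-0.95, -0.03] and in the cycling cluster -0.52 [-1.08, 0.01]. In the *Olfm1*-led cluster it was -2.01 [-4.30, -0.44], from 170 WT and 3 KO UMIs. When each cell was thinned to 2000 UMIs, a random draw that gives all cells the same depth, the ratio over the class was -0.28. Glial-like cells had 8 UMIs of *Rapgef4* in WT and 2 in KO, and the 12 WT keratinocyte-like cells had 6. Mesenchymal-like cells had 16 and 9 UMIs, a ratio of -1.32 [-2.68, -0.05]. Within the cluster that held all 16 WT UMIs the ratio was -0.92 [-2.56, 0.51].

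*Trpm1* (ENSMUSG00000030523; chr7:64153835-64269775, plus strand) encodes a cation channel of melanocytes and of retinal bipolar cells, also called melastatin, and it is a known MITF target. It was at 102 CPM [90.2, 116] in WT melanoblast-like cells, from 259 UMIs, and at 179 CPM [151, 210] in KO, from 148 UMIs. The log2 ratio was 0.81 [0.51, 1.10], with 97.1% of genes lower, and 0.48 when each cell was thinned to 2000 UMIs. By cluster it was 0.54 [0.12, 0.96] in the *Pmel*-led and 1.35 [0.81, 1.89] in the cycling cluster, and -0.66 [-2.57, 0.74] in the *Olfm1*-led cluster, from 4 KO UMIs. *Trpm1* had 6 UMIs in WT and 4 in KO glial-like cells, and in KO macrophage-like cells 0, which allows up to 11.2 CPM.

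The *Trpm1* transcript is the host of a microRNA. *Mir211* lies inside it on the same strand (chr7:64205806-64205911), and the mature miR-211-5p is shown with its seed, bases 2 to 8, in capitals, from RefSeq. A 3′ kit primed on poly(A) tails does not measure mature microRNAs, and no value for it was available. The *Trpm1* start at chr7:64185209-64185508, plus strand, is shown because it held both E-box letters bound by MITF, 1 CATGTG (read as CACATG on the other strand) and 1 CACGTG, in capitals. Those letters, searched on both strands, were present in 14.2% and 7.15% of the 32851 promoters. The other *Trpm1* start at hand held 1 CATGTG and 0 CACGTG. Of the 9 promoters at hand 5 held at least 1 of the 2 motifs, all of them starts of *Cpne4*, *Trpm1* or *Mt1*. The shares of all promoters with either motif and with both were not counted, so nothing is read from that count.
miR-211-5p: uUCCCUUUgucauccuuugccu
Trpm1: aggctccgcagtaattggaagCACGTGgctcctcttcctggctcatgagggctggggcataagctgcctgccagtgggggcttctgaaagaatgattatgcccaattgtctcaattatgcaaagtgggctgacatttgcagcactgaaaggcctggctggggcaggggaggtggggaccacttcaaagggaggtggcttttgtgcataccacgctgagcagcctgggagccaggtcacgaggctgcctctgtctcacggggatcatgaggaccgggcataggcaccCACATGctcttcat

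*Cpne4* (ENSMUSG00000032564; chr9:104547286-105034544, plus strand) encodes copine 4, a protein that binds membranes in the presence of calcium. It was at 90.4 CPM [79.1, 103] in WT melanoblast-like cells, from 229 UMIs, and at 128 CPM [105, 155] in KO, from 106 UMIs, a log2 ratio of 0.50 [0.16, 0.84]. The ratio was 0.45 [-0.09, 0.97] in the *Pmel*-led cluster and 0.61 [0.07, 1.14] in the cycling cluster, and -0.25 [-2.17, 1.17] in the *Olfm1*-led cluster, from 4 KO UMIs. Outside melanoblasts it had 12 UMIs in WT and 7 in KO mesenchymal-like cells and 0 in 81 KO keratinocyte-like cells, which allows up to 3.94 CPM.

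*Ptprd* (ENSMUSG00000028399; chr4:75941238-78211961, minus strand) encodes a receptor-type tyrosine phosphatase of the LAR family, which organises synapses. It was at 42.7 CPM [35.0, 51.5] in WT melanoblast-like cells, from 108 UMIs, and at 9.68 CPM [4.18, 19.1] in KO, from 8 UMIs. The log2 ratio was -2.14 [-3.39, -1.11], a 4.41-fold [2.16, 10.5] lower level, and 0.111% of genes had a lower ratio. It was -3.12 with at least 500 genes per cell and -1.57 with each cell thinned to 2000 UMIs. There were 39 WT and 7 KO UMIs in the *Pmel*-led cluster, 40 and 1 in the cycling cluster and 29 and 0 in the *Olfm1*-led cluster. The ratios of the first and second were -1.71 [-3.12, -0.53] and -3.71 [-9.05, -1.15]. In the third, 0 UMIs in 14 cells did not let a lower level be detected.

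Among melanoblast-like cells, 17.4% [14.3%, 20.9%] in WT and 5.80% [2.54%, 11.1%] in KO had a UMI of *Ptprd*. In macrophage-like cells, taken as a class that should lack it, the shares were 2.74% in WT at a median depth of 4850.5 UMIs and 2.86% in KO at 6720. The KO background came from 1 of 35 cells, with an interval of [0.07%, 14.9%]. The KO melanoblast-like share lay inside that interval, which is too wide to say whether the share was above background. The WT melanoblast-like share was above the WT background, whose interval was [0.75%, 6.87%]. Mesenchymal-like cells had the gene in both libraries, at 44.2 CPM [32.4, 58.7] in WT, a level like that of WT melanoblast-like cells, and at 67.0 CPM [54.5, 81.5] in KO, a log2 ratio of 0.60 [0.09, 1.13]. Within the 3 mesenchymal-like clusters the ratios were -0.12 [-1.03, 0.77], 0.29 [-0.73, 1.48] and -0.65 [-1.88, 0.69]. The second of these, led by *Mfap4* and *Aspn*, had 24 WT and 119 KO cells. The interval of each cluster held 0, so the higher level over the class was not seen within clusters.

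**Figure D1:**
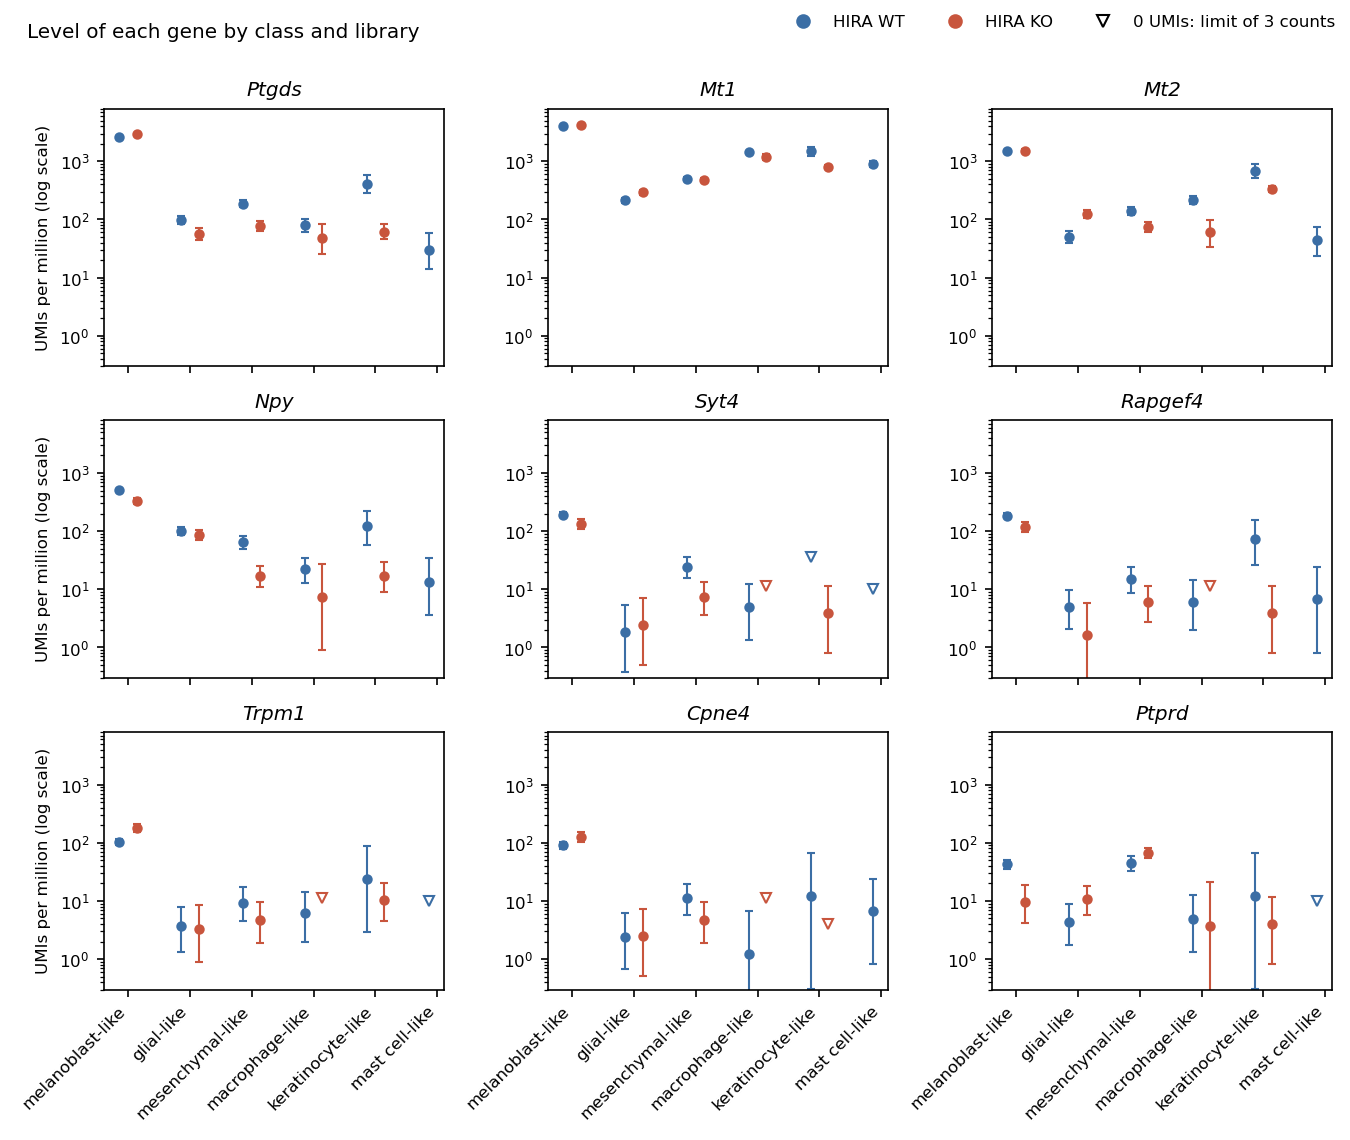
Level of each of the 9 genes by class and library, in CPM on a log scale, with exact Poisson 95% intervals of counting error as bars; blue points are HIRA WT, red points HIRA KO, and open triangles the limit of 3 counts where no UMI was found. Of the 6 classes drawn, melanoblast-like cells stand highest for 8 of the 9 genes in both libraries, *Mt1* is seen in every class, and *Ptprd* in KO is highest in mesenchymal-like cells, at 67.0 CPM.

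Between the libraries, 4 of the 9 genes were higher and 5 lower in KO melanoblast-like cells, with a median log2 ratio of -0.00 beside -0.02 for the 5392 genes with at least 50 UMIs, which all 9 had. Of the 9 genes, 1 (*Ptprd*) was at least 2-fold lower in KO, against 1.80% of all genes read, and 0 were at least 2-fold higher, against 1.48%. The choice of genes used this contrast, so nothing is read from those counts. Over the whole class *Mt1* and *Mt2* differed by less than counting error, *Npy*, *Syt4*, *Rapgef4* and *Ptprd* were lower, and *Ptgds*, *Trpm1* and *Cpne4* were higher. The study, which compared all its embryos, instead named *Ptgds* and *Dct* among genes lower in KO. It tested melanoblast and glial cells, apart or together. The values of *Ptgds* and *Dct* over the melanoblast-like class of these libraries do not show that decrease. Over melanoblast-, glial-, mesenchymal- and macrophage-like cells, 4 of the 9 genes had ratios in opposite directions with intervals clear of 0, against 3.51% of the 5392 genes. The choice of genes used the melanoblast ratio and intervals narrow with more UMIs, so nothing is read from that count either.

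**Figure D2:**
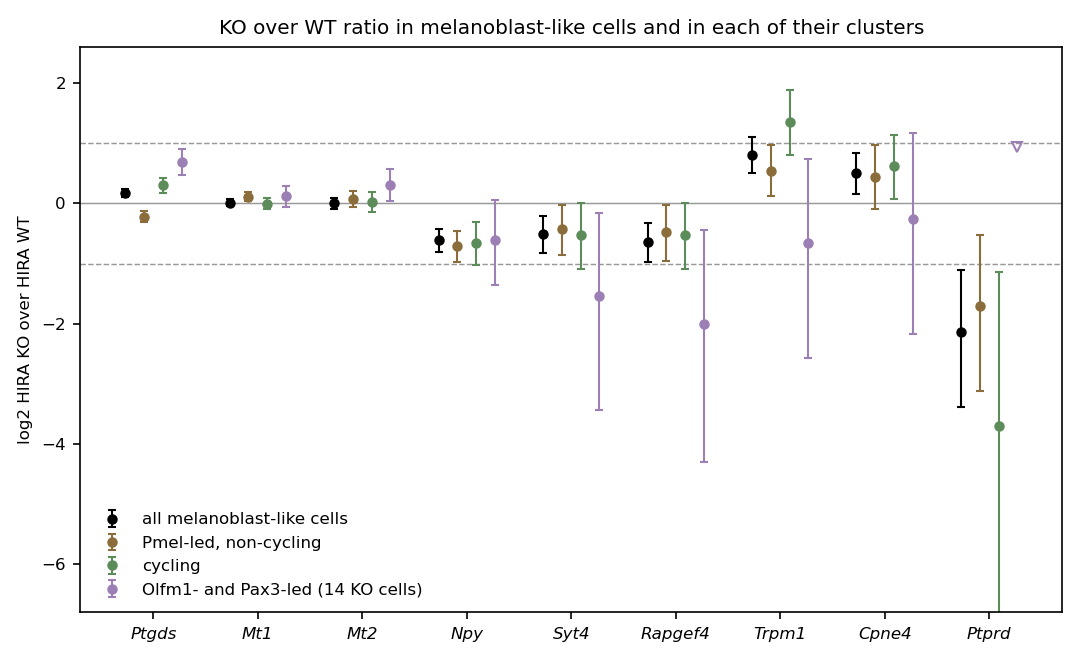
Log2 ratio of HIRA KO to HIRA WT for each gene in all melanoblast-like cells (black) and in their 3 clusters (brown, green and violet), with exact conditional binomial 95% intervals of counting error as bars and dashed lines at 2-fold; the open triangle marks 0 KO UMIs. *Ptprd*, at -2.14, is the only gene past 2-fold over the whole class, and the interval bar of its cycling cluster runs beyond the axis.

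Markers of other cells were unequal between the melanoblast-like cells of the libraries, and their part in these ratios was not tested. The 8 haemoglobin genes summed to 78.6 CPM in WT against 1116 CPM in KO, with 4 of the 8 detected, *Hbb-bs* the most abundant at 107 and 555 UMIs, and *Hba-x*, *Hbb-bh1*, *Hbb-y* and *Hbb-bh2* at 0. The 11 mesenchymal markers, all detected, summed to 147 and 631 CPM, led by *Col1a2*. The 10 keratinocyte markers summed to 71.5 and 548 CPM, led by *Krt10*, with *Trp63* at 0 in both and *Epcam* also at 0 in KO. The 9 mast cell markers summed to 124 and 18.1 CPM, led by *Cma1*, with *Fcer1a* and *Ms4a2* at 0 in both and *Mcpt4* and *Srgn* also at 0 in KO. The 7 neutrophil markers summed to 36.3 and 219 CPM, led by *S100a8*, with *Ltf* at 0 in KO. The 12 glial markers, of which KO lacked *Sox2* and *Mbp*, summed to 419 and 305 CPM. A list of 22 genes that respond to dissociation summed to 3453 and 3178 CPM, led by *Hspa8*.

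As a share of all UMIs, most of the 9 genes were lower in cycling than in other melanoblasts of the WT library. The cycling cluster was deeper, at a median of 6453 UMIs per cell over both libraries. The *Pmel*-led cluster had 4580 and the *Olfm1*-led 3489, so a lower CPM in cycling cells does not mean fewer UMIs per cell. Of the WT melanoblast-like cells 153 were in the cycling cluster, which had 15377 CPM of a list of 95 cell cycle genes, against 2859 CPM in the *Pmel*-led and 3457 CPM in the *Olfm1*-led cluster. In WT, 8 of the 9 genes were lower in the cycling cells than in the other 382, with a median log2 ratio of -0.41 beside 0.01 over 4530 genes. None of the 9 was past 2-fold, against 4.97% of those genes in either direction. The cells were grouped by clustering, and leading genes of non-cycling clusters were among those chosen, so these values too are a description and nothing is read from the comparison with all genes.

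*Trpm1* differed most in WT, at 66.5 CPM in cycling and 125 CPM in non-cycling cells, a log2 ratio of -0.91 [-1.34, -0.50]. *Npy* was at 391 and 582 CPM, a ratio of -0.57 [-0.75, -0.40], *Ptgds* at 2063 and 3004 CPM, a ratio of -0.54 [-0.62, -0.47], and *Mt2* at 1238 and 1715 CPM, a ratio of -0.47 [-0.57, -0.37]. *Syt4*, *Rapgef4* and *Mt1* had ratios of -0.41, -0.33 and -0.31, with intervals below 0. *Cpne4* at 0.06 [-0.34, 0.45] and *Ptprd* at -0.13 [-0.73, 0.45] did not differ beyond counting error. *Dct*, *Pmel* and *Mlana* were also lower in cycling cells, at -0.52, -0.54 and -0.77, and *Mitf* was at 0.18 [-0.09, 0.44].

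In KO, with 40 cycling and 98 other cells, the median of the 9 was -0.36, beside 0.01 over 1926 genes with at least 50 UMIs. Of the 9 ratios 8 were below 0, but not all of them beyond counting error. Past 2-fold was 1 of the 9, *Ptprd* with 8 UMIs and so under that minimum, against 3.12% of the 1926 genes. Only the ratios of *Npy* at -0.65 [-1.04, -0.27], *Mt2* at -0.43 [-0.60, -0.26], *Ptgds* at -0.36 [-0.49, -0.24] and *Mt1* at -0.33 [-0.44, -0.23] had intervals below 0. *Syt4* at -0.42 [-1.04, 0.17], *Rapgef4* at -0.13 [-0.76, 0.49] and *Cpne4* at 0.25 [-0.34, 0.83] did not differ beyond counting error. *Trpm1* was at 170 CPM in cycling and 185 CPM in non-cycling KO cells, a ratio of -0.12 [-0.63, 0.37]. *Dct* was higher in the cycling cells of this library, at 0.30 [0.19, 0.42]. *Ptprd* had 1 UMI in cycling and 7 in non-cycling KO cells, a ratio of -2.17 [-7.67, 0.79].

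**Figure D3:**
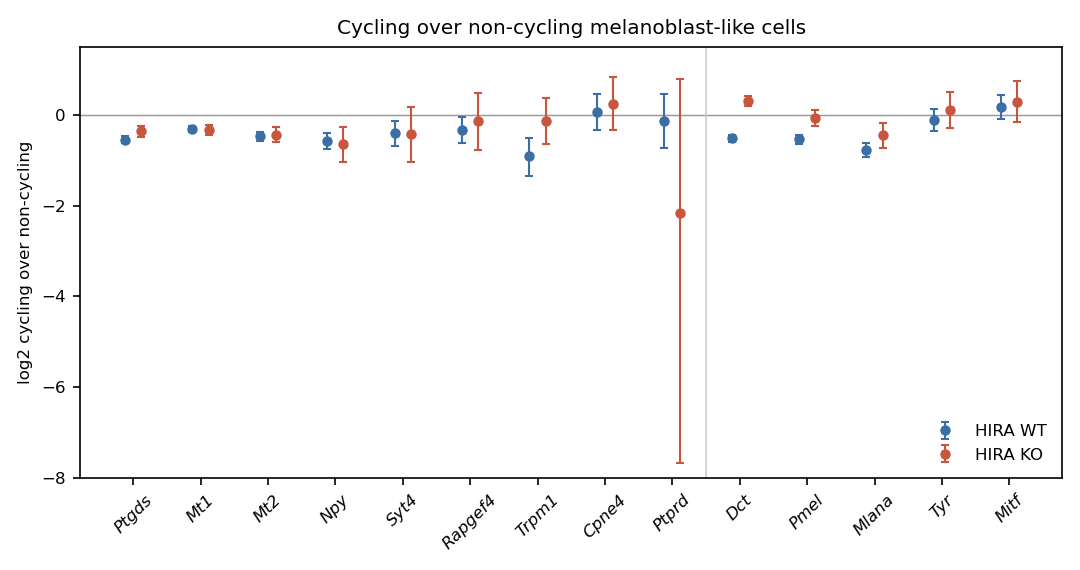
Log2 ratio of cycling to non-cycling melanoblast-like cells in HIRA WT (blue; 153 and 382 cells) and HIRA KO (red; 40 and 98 cells) for the 9 genes and, right of the grey line, 5 pigment genes, with exact conditional binomial 95% intervals of counting error as bars. In WT all points of the 9 genes but that of *Cpne4*, at 0.06, lie below 0.

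The non-cycling WT clusters differed from each other in some of the 9 genes. *Ptgds* was higher in the *Pmel*-led than in the *Olfm1*-led cluster, at 3756 and 2268 CPM, a log2 ratio of 0.73 [0.64, 0.81], along with *Pmel* itself at 1.70 and *Dct* at 0.66. *Npy* was higher there too, at 645 and 521 CPM, a ratio of 0.31 [0.11, 0.50]. The metallothioneins went the other way, with ratios of -0.23 [-0.30, -0.16] for *Mt1* and -0.28 [-0.40, -0.17] for *Mt2*. The intervals of *Syt4*, *Rapgef4*, *Trpm1*, *Cpne4* and *Ptprd* all held 0. In KO, with 14 cells in the *Olfm1*-led cluster, *Ptgds* was at -0.19 [-0.40, 0.03] and *Dct* at -0.58 [-0.79, -0.36], opposite in sign to WT, *Npy* was at 0.20 [-0.49, 0.96], *Mt1* and *Mt2* were again lower in the *Pmel*-led cluster, at -0.23 [-0.41, -0.05] and -0.52 [-0.79, -0.24], and *Trpm1* was higher, at 1.46 [0.06, 3.37].

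The share of melanoblast-like cells with a UMI differed widely among the genes. It was 97.2% in WT and 97.8% in KO for *Ptgds*, against 19.9% and 34.3% in macrophage-like cells, and 71.0% and 65.2% for *Npy*, against 11.0% and 5.71%. For *Syt4* it was 45.2% and 35.5%, for *Rapgef4* 54.8% and 45.7%, for *Trpm1* 30.1% and 48.6% and for *Cpne4* 26.4% and 42.0%, with 1.37%, 2.05%, 2.05% and 0.685% of WT macrophage-like cells in the same order, and 0 of the 35 KO ones for each of the 4. KO cells were deeper, which raises such shares. With each cell thinned to 2000 UMIs, and 11 shallower WT cells left out, *Trpm1* was found in 18.1% of WT and 22.5% of KO cells and *Cpne4* in 14.7% and 20.3%, while *Npy* was found in 54.2% and 43.5% and *Ptprd* in 8.21% and 2.90%.

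The thinned counts also showed how unevenly each transcript was spread over cells of like depth. The variance divided by the mean, which is 1 for random sampling alone, was 4.12 in WT and 3.98 in KO for *Ptgds*, 2.52 and 2.74 for *Mt1*, and 2.10 and 2.28 for *Mt2*, beside 7.89 and 4.57 for *Dct*. *Ptgds* thus varied among melanoblasts beyond sampling. In WT, 48 of 524 cells had no *Ptgds* UMI (9.16%), where random sampling around 1 mean would leave 0.399% of cells without one. *Npy* was at 1.91 and 1.60, *Syt4* at 1.41 and 2.16, *Trpm1* at 1.15 and 1.37 and *Cpne4* at 1.42 and 1.13. *Rapgef4*, at 1.10 and 1.14, and *Ptprd*, at 1.00 and 0.978, were close to random sampling, so their zeros say little about which cells express them. A thinned cell had UMIs of 4.30 of the 9 genes on average in WT and 4.17 in KO.

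From cell to cell, *Mt1* and *Mt2* went together, with a Pearson r of 0.50 over 524 WT and 0.57 over 138 KO thinned melanoblast-like cells of 1 library each. *Mt2* and *Dct* were opposed, at -0.28 and -0.27, and so were *Mt1* and *Dct*, at -0.23 and -0.32. *Ptgds* went with *Pmel*, at 0.38 and 0.31, below the 0.66 and 0.33 of *Dct* with *Pmel*. *Ptgds* and *Npy* were at 0.09 in WT and 0.32 in KO. The pairs of *Ptprd* with another of the 9 genes had 1 to 43 cells with both, too few to read. *Mt1* and *Mt2* are paralogs, and the deposited counts do not show how reads that fit both were treated.

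Over 12 sums of a class and a library with at least 20 cells, the genes most like each of the 9 among 5699 were sought by Pearson r of log2 CPM with 10 added, the 9 themselves left out. They were *Pmel* (0.99), *Mlana* (0.98) and *Gpnmb* (0.97) for *Ptgds*, *Gpnmb* (0.98), *Bhlhe41* (0.97) and *Pmel* (0.96) for *Trpm1*, and *Gpnmb* (0.98), *Pmel* (0.96) and *Cubn* (0.96) for *Syt4*. *Rapgef4* was most like *Slc45a2*, *Gucy1b3* and *Syngr1*, *Cpne4* most like *Cubn*, *Mgat5* and *Cdk2*, and *Npy* most like *Tecpr1*, *Slc24a5* and *Atg4a*. *Mt2* was most like *Cyb5a*, *Npnt* and *Tyr*, and *Mt1* most like *Plekhj1*, *1600002K03Rik* and *Renbp*. *Ptprd* was most like *Sept11* (0.91), *Tmeff2* (0.84) and *Cldn10* (0.84), and its r with *Ptgds* was 0.40. The points share 2 libraries, and sums within a library are not independent. The choice of genes favoured a high level in melanoblasts, which raises r with other melanoblast genes, so these values are a description only.

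Relatives and partners of the 9 genes were looked up in melanoblasts. Genes with at least 20 UMIs in melanoblast-like cells were read, and among all 8090 such genes 4.41% were at least 2-fold lower and 3.55% at least 2-fold higher in KO. Of 22 genes of prostaglandin synthesis, transport and response 5 were read, 0 of them past 2-fold, and *Ptgs1* and *Ptgs2*, the cyclooxygenases that make the substrate of *Ptgds*, had 0 UMIs in both. The most abundant was *Ptges3*, a co-chaperone also named as a prostaglandin E synthase, at 243 CPM in WT against 233 CPM in KO.

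Of 24 genes of metallothioneins and of zinc and copper handling 11 were read. *Atox1*, a copper chaperone, was at 476 CPM in WT against 548 CPM in KO, and *Mtf1*, the metal-responsive factor, had 33 and 16 UMIs. The zinc transporter *Slc30a7*, at -1.39 [-3.35, 0.11] from 32 and 4 UMIs, was the 1 gene past 2-fold. The paralogs *Mt3* and *Mt4* had 0 UMIs in the melanoblast-like cells of both libraries. Of 17 genes of the neuropeptide Y family, its processing and receptors 1 was read, *Pam*, which amidates peptides, with 25 and 7 UMIs. The receptor *Npy1r* had 1 UMI in the melanoblast-like cells of each library.

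Of 29 synaptotagmins and exocytosis genes 7 were read, with *Cplx2* (12 WT and 8 KO UMIs, at 1.03 [-0.47, 2.44]) past 2-fold higher, and *Vamp3*, a vesicle SNARE, the most abundant at 99.5 and 64.1 CPM. *Syt1*, the synaptic calcium sensor, had 0 UMIs in the melanoblast-like cells of both libraries. Of 25 genes of EPAC and RAP1 signalling 15 were read and 0 were past 2-fold. *Rap1a* and *Rap1b*, the small GTPases that EPAC2 activates, were at 126 and 106 CPM in WT and 126 and 114 CPM in KO, and *Mc1r*, the melanocortin receptor, at 50.6 and 32.7 CPM.

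Of 10 genes of TRPM and mucolipin channels 3 were read, led by *Mcoln3* at 247 CPM in WT against 250 CPM in KO, and 0 were past 2-fold. Of 8 other copines 2 were read, *Cpne3* at 24.9 and 31.4 CPM and *Cpne2* at 13.8 and 7.26 CPM. Of 23 relatives, ligands and intracellular partners of *Ptprd* 8 were read and 0 were past 2-fold. The nearest relatives, *Ptprs* at 39.5 CPM in WT against 62.9 CPM in KO and *Ptprf* at 11.8 and 14.5 CPM, did not share the low KO level of *Ptprd*. Of the 13 pigment genes set beside the 9, 12 were read, and *Tyrp1* was the 1 past 2-fold.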

How the data were processed

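Reads were mapped by the authors with Cell Ranger 2.2.0 to mm10 extended by tdTomato and Cre, and the raw UMI counts of each gene and barcode were deposited unnormalized. The filter removed 4 WT and 6 KO barcodes with under 100 genes, 3 and 12 with over 10% mitochondrial UMIs, and 0 with over 40000 UMIs. Logarithms were taken of counts per 10000. Variable genes (2000, less those held out: the 9 genes and sex-linked genes among others) were reduced to 30 principal components and clustered with 15 neighbours at Leiden resolution 1, seed 0, which gave 21 clusters. A marker was raised in a cluster if found in 10% of the cells or more and, after adding 10 CPM, 2-fold or more above all other cells. The class with most of its markers raised, as a share, named the cluster, which stayed unnamed with fewer than 3, or with more markers of another class than its own among its 10 leading genes, as 1 cluster did. Clusters with at least 3 cell cycle genes among these 10 are called cycling. Doublets were kept.

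KO over WT ratios were counted against all genes with at least 50 UMIs. Besides the 9 genes, the text names identity and label checks, leading genes of clusters, from each list the most abundant genes, up to 5, and those past 2-fold, and the 3 genes most alike among those with at least 200 UMIs. *Mtf1*, *Mc1r*, *Ptprf*, *Slc45a2*, *Slc24a5*, the relatives at 0 or 1 UMI, *Npy1r* and the copines, the clusters described outside melanoblasts, and the comparison over 4 classes with all genes, were chosen after seeing their values. The members and lists were chosen with earlier results of these data known. The labels do not say which of the study's embryos were used, and WT1 and KO1 are inferred from the design and the sex of each library.

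Tools were scanpy 1.11.5 with igraph 0.11.9, scipy 1.17.1, anndata 0.12.19, scikit-image 0.26.0, pandas 2.3.3, matplotlib 3.10.9 and numpy 2.4.6 in Python 3.11.15, and R 4.3.3 with edgeR 4.0.16 and DESeq2 1.42.0. The log2 ratios and the intervals were tested on simulated counts that held sampling error only. Clustering, naming, thinning and correlations were not tested in this way. Alternatives covered the cell filter, resolution, separate clustering, the 9 genes kept in the clustering, means over cells, thinning to 2000 UMIs, Scrublet calls, selection by pigment gene UMIs, scaling factors, other totals, clusters mostly from 1 library, and cell cycle share in place of clusters. Genome positions are those of GENCODE on GRCm38.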

Additional observations from a re-analysis of the deposited data

Results flagged for a closer look

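For 4 of the 9 genes, against 3.51% of the 5392 genes with at least 50 UMIs in melanoblast-like cells, the ratio of KO to WT went in opposite directions in different classes among 4 (melanoblast-, glial-, mesenchymal- and macrophage-like), each with a 95% counting interval clear of 0, and the difference between the classes was not tested because there is 1 library per genotype. The choice of genes used the melanoblast ratio and intervals narrow with more UMIs, so nothing is read from the comparison with other genes. For *Ptgds* the log2 ratio was 0.18 in melanoblast-like, -0.80 in glial-like and -1.28 in mesenchymal-like cells, beside -0.03, -1.05 and -0.93 for *Dct*, and within the 3 mesenchymal-like clusters it was -0.87, -0.75 [-1.80, 0.43] and -2.11. In the *Pmel*-led melanoblast cluster it was -0.22 [-0.32, -0.13], and over the class without the *Olfm1*-led cluster 0.07. The share of glial-like and mesenchymal-like cells with a *Ptgds* UMI was not lower in KO. In thinned cells it was 7.07% in WT and 7.69% in KO for glial-like cells, and 7.77% and 10.1% for mesenchymal-like cells. For *Mt1* the log2 ratio was 0.46 in glial-like and -0.27 in macrophage-like cells. For *Mt2*, the other metallothionein, it was 1.33 in glial-like cells, against -0.93 in the mesenchymal-like and -1.86 in the macrophage-like class, and 1 of the 3 mesenchymal-like clusters was at 1.35 [-0.29, 3.69]. The cluster mix of macrophage-like and glial-like cells differed between the libraries. In WT 96 macrophage-like cells fell in the *Pf4*-led cluster and 50 in the *Plac8*-led one, against 18 and 17 in KO. The *Pou3f1*-led glial-like cluster took 38 of 447 WT and 61 of 255 KO cells. The part of this mix in the class ratios was not tested. For *Ptprd*, the receptor phosphatase, the log2 ratio was 0.60 in mesenchymal-like and -2.14 in melanoblast-like cells, but within the 3 mesenchymal-like clusters it was -0.12, 0.29 and -0.65, each with an interval that held 0.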

How the results depend on the processing

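No paired analysis was possible because there is 1 library per genotype. The number of the 9 genes at least 2-fold lower in KO melanoblast-like cells was 1 under all 14 alternatives. The median cycling over non-cycling ratio in WT stayed within -0.55 and -0.34 under 12 alternatives. The median KO over WT ratio ranged from -0.12 to 0.07. Under 13 of 14 alternatives it stayed within the counting interval of *Mt2*, the gene at the median. It moved to -0.12 with at least 500 genes per cell, where 81 of the 138 KO melanoblast-like cells fell into a cluster of 94 cells that was led by haemoglobin genes and had no name, so that 57 KO cells were left. An alternative chosen after seeing the data, with haemoglobin genes left out of the leading genes, gave 148 KO cells. The share of genes past 2-fold was 3.28% with at least 50 UMIs, 33.4% with no filter and 1.35% with at least 200 UMIs, since genes with few UMIs scatter more.

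By gene, 116 of 126 KO over WT values and 99 of 108 cycling values, the latter chosen after seeing the data, stayed within the counting interval. *Ptprd* ranged from -3.12 to -1.57, *Npy* from -0.72 to -0.49, *Syt4* from -0.81 to -0.28, *Rapgef4* from -0.90 to -0.28, *Trpm1* from 0.48 to 0.95, *Cpne4* from 0.31 to 0.69 and *Ptgds* from 0.04 to 0.22, each on 1 side of 0. *Mt1* (-0.09 to 0.10) and *Mt2* (-0.12 to 0.10) crossed it. TMM factors shifted all ratios by -0.05 and DESeq2 factors by -0.03. Scrublet called 9 WT and 6 KO cells doublets, 0 of them melanoblast-like. Depth limits *Ptprd* most, with 8 KO UMIs, and every ratio in the *Olfm1*-led cluster with 14 KO cells.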
